A study of Homo sapiens with 11 samples.

Results

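The data described here are the messenger RNA levels of MOLM-13 cells that had received only the solvent DMSO for 72 h. MOLM-13 is an established human acute myeloid leukemia (AML) line in which a rearranged KMT2A gene encodes a fusion protein with MLLT3, and it also carries an internal tandem duplication of FLT3. Members were chosen by label alone, as the columns of the DMSO group, and came to 4 libraries of the 11 in the series. The other 7 libraries had received MI-503, a Menin inhibitor, with or without PR-957, an immunoproteasome inhibitor, and do not enter any value below. All 4 libraries came from 1 cell line, with no other agent named in the labels and no untreated cells beside them, so that the solvent is part of every level. Nothing in the labels says whether the replicates were separate cultures, and the spread given below is that between these libraries, which may be technical.

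Counted fragments came to 30992759, 22321728, 21580208 and 21603798 in replicates 1 to 4, or 96498493 in all. Levels are given as TPM (fragments divided by the gene's exon length and scaled to the same total in each library), which allows genes of one library to be ranked. CPM (fragments scaled in the same way but not divided by length) is used where the same gene is compared between libraries. A gene was called expressed at 1 TPM or more in each of the 4 libraries, and silent where no fragment was counted in any of them. Values follow the order of replicates 1, 2, 3 and 4, and ± is the SD with n = 4. In a bulk library, a low level can be fewer cells with the transcript or less of it in each cell, which cannot be told apart. Replicate 2 stood somewhat apart from the other 3 libraries. When the counts of 2 libraries were compared gene by gene, the chi-square divided by its degrees of freedom was 5.97, 4.31 and 4.52 for the pairs with replicate 2. It was 2.15 to 3.81 for the pairs among replicates 1, 3 and 4. The genes concerned are described at the end.

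As background, granulocytes and monocytes arise from a shared progenitor. The factors CEBPA and SPI1 (PU.1) set that fate, and the enzymes of the primary granules are made at the promyelocyte stage, before the late granule proteins. Fusions of KMT2A recruit Menin and elongation factors to their target genes and keep the later genes of the HOXA cluster and their cofactor MEIS1 switched on, which normal myeloid cells turn off as they mature. FLT3 is a receptor tyrosine kinase of early progenitors, and its internal tandem duplication makes it signal without ligand.

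The following stretches are the 100 bases just before the start of 5 genes at the ends of the range described below, to show that CpG-rich and CpG-poor promoters are found among both expressed and silent genes. They are RefSeq sequence of GRCh38.p14, written from 5′ to 3′ on the strand of the gene, with each CG dinucleotide in capitals. The gene PPP1R27 was among the 50 most abundant, CTSG encodes the granule protease cathepsin G, HOXA9 is a target of KMT2A fusions, HOXD8 belongs to a silent HOX cluster, and CPA3 encodes a mast cell protease.
PPP1R27 (chr17:81835051-81835150, minus strand): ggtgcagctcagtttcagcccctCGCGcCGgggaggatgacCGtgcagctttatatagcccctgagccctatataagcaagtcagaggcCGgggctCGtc
CTSG (chr14:24576251-24576350, minus strand): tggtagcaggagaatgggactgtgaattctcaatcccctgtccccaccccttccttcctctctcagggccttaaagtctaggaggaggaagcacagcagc
HOXA9 (chr7:27165538-27165637, minus strand): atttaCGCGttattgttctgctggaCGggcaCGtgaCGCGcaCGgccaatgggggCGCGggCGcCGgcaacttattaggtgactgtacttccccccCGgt
HOXD8 (chr2:176129605-176129704, plus strand): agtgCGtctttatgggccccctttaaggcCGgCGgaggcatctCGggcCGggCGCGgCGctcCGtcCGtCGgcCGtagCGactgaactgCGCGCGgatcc
CPA3 (chr3:148865196-148865295, plus strand): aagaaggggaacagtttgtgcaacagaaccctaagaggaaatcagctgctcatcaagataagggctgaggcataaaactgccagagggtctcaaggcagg
In the printed bases, CG occurred 6 times before PPP1R27, 12 times before HOXA9 and 16 times before HOXD8, and not once before CTSG or CPA3. CTSG, at 1232 TPM, and CPA3, at 0, thus both lacked it, while HOXA9, at 28.1 TPM, and HOXD8, at 0, both held it many times. The base for comparison was the 17662 protein-coding genes on 1 contig, with 1 autosome left out. Over the 14575 of them with a promoter in the table, the 300 bases around the start held a median of 22 CG, and over the 8413 expressed ones a median of 27. The median ratio of observed to expected CG was 0.772 and 0.855, and the median GC content 63% and 65.3%. The letters TATAAA, searched on both strands, were in the 300-base window of 9.24% of all these genes, 5.34% of the expressed and 6.58% of those at 100 TPM or more. Of the printed genes, PPP1R27 and HOXA9 had them in that window. The table covered 82.5% of these 17662 genes and 86.1% of the 9772 expressed among them, but only 78.0% of the 3521 silent ones, so that no figure for silent genes is given. These are descriptions of sequence and were not related to any binding measurement.

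The transcript pool was led by mitochondrially encoded genes and by genes of the translation machinery. The 13 mitochondrial mRNAs made up 14.79, 12.97, 12.99 and 13.65% of all TPM (13.6 ± 0.853%), with replicate 1 above the other 3. COX1, a subunit of cytochrome c oxidase, was the most abundant transcript at 23181, 21740.5, 20895 and 21792 TPM. ATP6, of the ATP synthase, followed at 22865, 19133, 19826 and 20663 TPM. Genes for ribosomal proteins held 21.8, 23.6, 22.4 and 22.1% of TPM (22.4 ± 0.787%), with replicate 2 highest. Among nuclear genes the first was EEF1A1, the translation elongation factor that brings transfer RNA to the ribosome, at 15138, 15907, 15083 and 15311 TPM. Other genes among the 25 most abundant were COX3, ND1, COX2, ND4, ND6, ND2, ATP8 and CYTB of the mitochondrion, the ribosomal protein genes RPS2, RPL13A, RPL8, RPS12, RPL3, RPLP0, RPS16 and RPL12, the elongation factor EEF2, ACTB for beta-actin and GAPDH of glycolysis. They lay between 5713 and 16628 TPM. Counting ignored strand, so that the level of a mitochondrial gene such as ND6 can include fragments from the opposite strand. Together the 10 most abundant genes of each library held 14.7 ± 0.425% of TPM, the top 100 held 45.3 ± 0.585% and the top 1000 held 72.3 ± 0.312%. Replication-dependent histone transcripts, which mostly lack a poly(A) tail, made up only 0.0175 ± 0.00102% in these libraries of polyadenylated RNA.

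PPP1R27 (chr17:81833492-81835050, minus strand), which encodes a regulatory subunit of protein phosphatase 1, ranked 50th among all genes. It stood at 2928, 3342, 3088 and 2994 TPM. Its CV over the libraries was 5.96% (from CPM), with 97809 fragments in all, and none of its exon bases was shared with another annotated gene. Of its neighbors, only MCRIP1, on the same strand, was looked up, and it was at 61.02, 58.2, 63.5 and 62.7 TPM. Counting ignored strand, and whether the PPP1R27 fragments extended from another transcript was not tested. It was singled out after its value had been seen.

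Of 38557 annotated genes, 11792 were expressed (30.6%) and 15709 were silent (40.7%), while 11056 had some fragments but missed 1 TPM in at least 1 library. Among 19398 protein-coding genes, 10237 were expressed (52.8%) and 4192 silent (21.6%). A level of 100 TPM or more in all libraries was reached by 1317 genes. Single libraries had 12291, 12511, 12474 and 12394 genes at 1 TPM or more, so the deepest, replicate 1, had the fewest. All but 1 of 30 common reference genes were expressed, 28 of them at 100 TPM or more, and the exception, TUBB for beta-tubulin, is annotated on several contigs of hg38. Counting left out fragments that map to several places, and genes annotated on several contigs stood apart. Only 12.7% of the 1178 protein-coding genes on several contigs were expressed and 48.6% were silent, against 55.4% and 19.9% of the 18220 on 1 contig. Of the 40 genes with copies on both X and Y, 36 were silent, among them those for the receptor chains IL3RA (CD123), CSF2RA and CRLF2 and for CD99. A count of 0 for these genes is not read as absence. Olfactory receptor genes give a level of background in a cell that should not use them. Of 402 such genes, 367 were silent and 1 was expressed.

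The cells carried the marks of white blood cells. Of 18 genes of the white blood cell core, 16 were expressed (88.9%, against 52.8% of all protein-coding genes). LCP1, which encodes the leukocyte actin-bundling protein plastin-2, was at 766, 779, 742 and 793 TPM. ARHGDIB, an inhibitor of small GTPases in blood cells, was at 725, 721, 735 and 705 TPM. RAC2, a GTPase of the phagocyte oxidase, was at 581, 578, 647 and 576 TPM. In RAC2, replicate 3 lay above the other libraries. The other expressed members lay between 28.6 TPM for PTPRC (CD45) and 339 TPM for CORO1A, with HCLS1, LAPTM5, PTPN6, ITGB2, ITGAL, WAS, VAV1, FERMT3, SELPLG, CD37 and CD53 between them. PTPRC is annotated on several contigs, and its level is understated: with the exon length of 1 contig it came to 43.4 TPM. The 2 members below the threshold were CD48, at 0.819, 1.03, 0.789 and 1.300 TPM, and LSP1, at 0.440, 1.35, 0.668 and 0.402 TPM.

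Among the marker lists of blood lineages, that of primary granule and promyelocyte genes held the highest levels. Of 14 members, 13 were expressed (92.9%, against 52.8% of all protein-coding genes). Only 5 of them, not all of which encode granule enzymes, held 95.8 ± 0.206% of the list's summed level of 6031 ± 139 TPM. CLEC11A, a secreted lectin of myeloid progenitors, led at 1575, 1510.3, 1716 and 1600.3 TPM. SRGN, the proteoglycan that packs granule enzymes, was at 1327, 1434, 1353 and 1376 TPM. CTSG (cathepsin G, chr14:24573518-24576250, minus strand) was at 1108, 1459, 1148 and 1214 TPM. Replicate 2 was the highest for CTSG and the lowest for CLEC11A. The serine protease gene PRSS57 was at 986, 1027, 1022 and 974 TPM and RNASE2, the eosinophil-derived neurotoxin, at 619, 493, 582 and 598 TPM. MPO, which encodes myeloperoxidase (chr17:58269855-58280935, minus strand), was lower, at 75.9, 102, 80.1 and 75.7 TPM, with replicate 2 again above the rest. NUCB2 was at 109.8 ± 5.41 TPM and CST7 at 42.2 ± 6.58 TPM. The neighboring protease genes ELANE (6.15 ± 0.268 TPM), PRTN3 (1.37 ± 0.159 TPM) and AZU1 (1.77 ± 0.446 TPM), like CFD (3.11 ± 0.592 TPM) and MS4A3 (2.48 ± 0.443 TPM), are annotated on several contigs. With the length on 1 contig ELANE came to 9.44 TPM and PRTN3 to 2.62 TPM. How many of their fragments were left out was not tested, and their levels are not set against that of CTSG. SERPINB10 was at 0.117 TPM.

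Later neutrophil genes were mostly low or silent. Of 17 genes, 3 were expressed (17.6%, against 52.8% of all protein-coding genes). Another 5 were silent (29.4%, against 21.6%), namely LCN2, OLFM4, CEACAM8, CRISP3 and FCGR3B. The exception in level was CHI3L1, a chitinase-like protein of specific granules and macrophages, at 160.5, 193, 169.6 and 158 TPM. BPI, a bactericidal protein, was at 6.95, 10.1, 6.25 and 7.401 TPM and PGLYRP1 at 3.08, 3.98, 4.13 and 3.98 TPM. CXCR2 had a mean of 1.71 TPM but missed the threshold in replicate 3. LTF (lactoferrin), MMP8 and CAMP, secondary and tertiary granule genes, had 1, 1 and 3 fragments over all 4 libraries.

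Of 27 monocyte and macrophage genes, 15 were expressed (55.6%), 5 were silent (18.5%) and 7 lay between, shares near the 52.8% and 21.6% of all protein-coding genes. LYZ (lysozyme, chr12:69348381-69354234, plus strand) led at 146, 168, 140.0 and 147 TPM. CD68, a lysosomal protein of macrophages, was at 82.2, 95.8, 87.1 and 85.6 TPM. TYROBP (DAP12), an adaptor of activating receptors, was at 63.9, 77.3, 75.7 and 65.4 TPM. In each of these 3, replicate 2 was the highest library. The cysteine protease CTSS was at 59.8 ± 2.77 TPM, CD33 at 29.6 ± 1.37 TPM, FCGR1A (CD64) at 23.99 ± 1.49 TPM and ITGAM (CD11b) at 11.2 ± 0.810 TPM. The alarmin genes S100A9, at 10.3, 16.1, 10.8 and 12.2 TPM, and S100A8, at 3.86, 7.62, 3.56 and 4.04 TPM, were low, and S100A8 in replicate 2 lay apart from the rest. CX3CR1 (11.3 ± 0.552 TPM), CCR2 (5.55 ± 2.02 TPM), CSF1R (3.57 ± 0.563 TPM), TREM2 (2.62 ± 0.369 TPM), ITGAX (2.28 ± 0.753 TPM) and FCER1G (2.07 ± 0.517 TPM) were expressed as well. By contrast CD14, the lipopolysaccharide co-receptor that defines classical monocytes, had 23 fragments in all and 0.359 TPM. FCN1 had 1 fragment, and VCAN, MRC1 (CD206), C1QA, C1QB and CLEC7A had none. For the silent members of this list, the 3 counts taken as the limit of detection over the 4 libraries correspond to between 0.00607 and 0.0621 TPM.

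**Figure D1:**
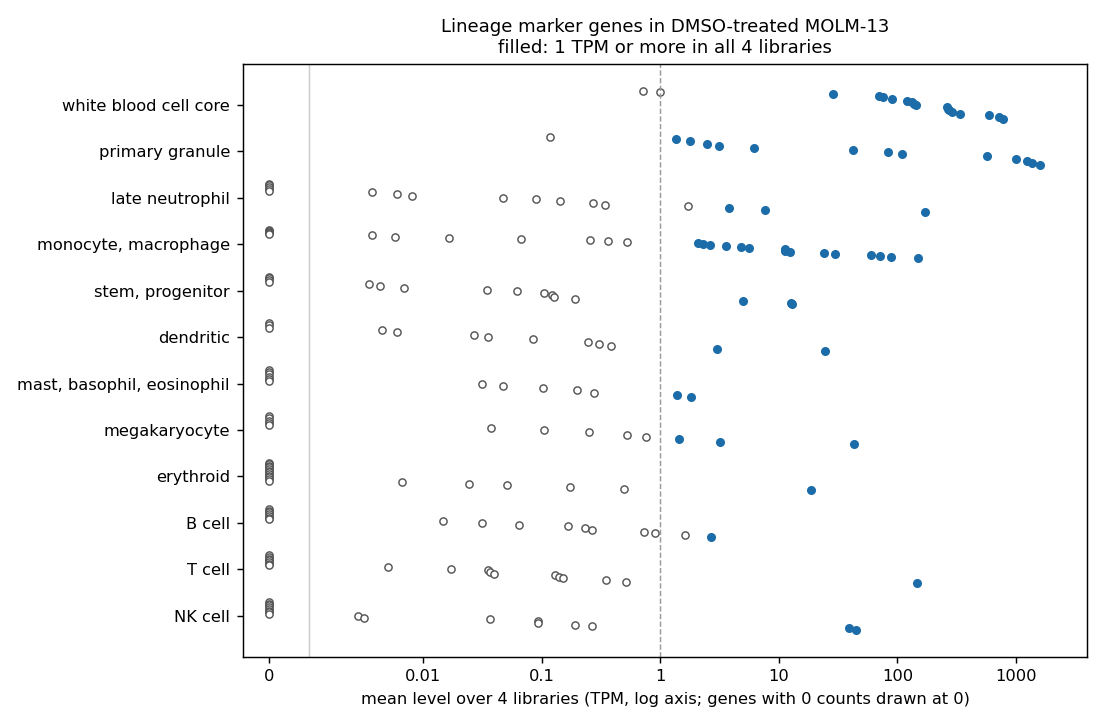
Mean level over the 4 libraries of each marker gene in 12 lists, on a log axis in TPM, with genes without a fragment drawn at 0 and a dashed line at 1 TPM. Filled points are genes at 1 TPM or more in all 4 libraries. They were 16 of 18 in the white blood cell core and 13 of 14 in the list of primary granule and promyelocyte genes (labeled primary granule). In the erythroid list they were 1 of 18, and 1 of 18 among measured T cell genes.

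Of 16 genes listed for stem cells and progenitors, 4 were silent (25%, against 21.6% of all protein-coding genes) and 9 had some fragments below the threshold. The other 3 were expressed (18.8%, against 52.8%): NRIP1 (12.9 ± 0.696 TPM), CD38 (12.7 ± 0.646 TPM) and PROCR (4.96 ± 1.08 TPM). CD34 (chr1:207880972-207911125, minus strand), the surface antigen by which progenitors are usually isolated, had 2 fragments over the 4 libraries, a mean of 0.00690 TPM. KIT, the receptor of stem cell factor, was at 0.191 TPM from 39 fragments, and PROM1 (CD133) had 1 fragment. HLF, MECOM, CRHBP and AVP, genes of quiescent stem cells, were silent.

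Genes of other blood lineages were silent or low, with single members as exceptions. The expressed share was 5.56% in the erythroid and T cell lists, 11.8% in the NK cell list and 5.88% in the B cell list. It was 23.1% in the megakaryocyte list and 15.4% in the mast cell and dendritic lists, against 52.8% of all protein-coding genes. In the erythroid list, 12 of 18 were silent, among them all 6 globin genes listed (HBA1, HBA2, HBB, HBD, HBG1 and HBG2), and the one expressed was EPOR, the erythropoietin receptor, at 17.97, 18.7, 19.1 and 18.8 TPM. In the T cell list only CD4 was expressed, at 144, 146, 147 and 152 TPM (chr12:6789528-6820810, plus strand), a gene that monocytes use too. CD3D and CD3E, of the T cell receptor complex, had 4 and 2 fragments, while CD3G, CD2, LCK and CD28 had none. In the NK cell list NCAM1 (CD56), a neural and NK cell adhesion molecule, was at 45.1, 43.7, 45.1 and 45.4 TPM and NKG7, a granule membrane protein, at 32.3, 45.5, 41.6 and 36.6 TPM. Both were expressed in all libraries, whereas GNLY and GZMB had 4 and 3 fragments, and KLRK1, GZMA and KLRC1 had none. In the B cell list 1 of 17 genes was expressed. CD79A missed the threshold in replicate 4, at 1.49, 2.17, 1.94 and 0.821 TPM, and MS4A1 (CD20), RAG2, DNTT and VPREB1 were silent. Of the megakaryocyte list, NFE2 (43.2 ± 6.13 TPM), GP1BA (3.16 ± 0.299 TPM) and GP9 (1.43 ± 0.490 TPM) were expressed, with PF4 and PPBP silent. In the mast cell, basophil and eosinophil list PRG2 (1.83 ± 0.428 TPM) and EPX (1.39 ± 0.343 TPM), eosinophil granule genes, just passed, while TPSAB1, CPA3, FCER1A and CLC were silent. Of the 13 dendritic cell genes, BATF3 (24.4 ± 1.403 TPM) and FLT3LG (3.01 ± 0.306 TPM) were expressed.

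Outside the blood, a few keratin and adhesion genes were read. KRT18, an intermediate filament of simple epithelia, was at 50.7, 56.2, 50.6 and 51.7 TPM. MUC1, a membrane mucin, was at 16.6 ± 1.45 TPM, KRT8 at 7.56 ± 1.74 TPM, CLDN7 at 3.57 ± 0.308 TPM and ESRP1 at 2.57 ± 0.193 TPM. These were 5 of 12 epithelial genes (41.7%, against 52.8% of all protein-coding genes). EPCAM, CDH1, KRT19, KRT5 and KRT14, which define epithelial cells, were silent. In the stromal and endothelial list 1 of 15 was expressed (6.67%), ACTA2 at 6.09 ± 0.258 TPM (9.68 TPM with its unshared length), with COL3A1, DCN, CDH5 and VWF silent. Of 16 hepatocyte, neural and germ cell genes, MBP (26.5 ± 0.774 TPM) and SNAP25 (3.94 ± 0.134 TPM) were expressed (12.5%). No member of the cancer-testis list was expressed, and 17 of 19 were silent.

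Lineage transcription factors were led by those of the granulocyte and monocyte branch. Of 40 lineage factors, 25 were expressed (62.5%) and 2 silent (5%), against 52.8% and 21.6% of all protein-coding genes. CEBPA (chr19:33299934-33302564, minus strand), the master factor of granulocyte and monocyte fate, was the highest at 693, 671, 723 and 664 TPM. IRF8 (chr16:85899162-85922609, plus strand), which directs cells to the monocyte and dendritic branches, was at 454, 533, 463 and 431 TPM. MYB, a factor of proliferating progenitors, was at 213, 221, 211 and 217 TPM. Replicate 2 was the highest for IRF8 and the 4 libraries were close together for MYB. SPI1 (PU.1) was at 169, 172, 175 and 167 TPM, and TCF3, a partner of many basic helix-loop-helix factors, at 152, 153, 165 and 149 TPM. These 5 held 68.9 ± 0.769% of the list's summed TPM.

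A second tier of factors lay between 45.4 and 79.8 TPM: LMO2, GFI1, FLI1, SATB1, CEBPD, ZEB2, MEF2C, SOX4, LYL1 and RUNX1. GFI1, a repressor of the granulocyte branch, was at 78.8 ± 3.77 TPM, RUNX1 at 45.4 ± 0.965 TPM and MEF2C at 52.1 ± 2.11 TPM. Then came IKZF1 (39.7 ± 3.62 TPM), ETV6 (26.99 ± 0.897 TPM), RUNX3 (24.1 ± 1.15 TPM), RUNX2 (15.6 ± 0.948 TPM), CEBPB (14.4 ± 1.13 TPM), BCL11A (13.4 ± 0.695 TPM), KLF4 (11.7 ± 0.448 TPM), GATA2 (7.61 ± 0.631 TPM) and TCF4 (1.26 ± 0.191 TPM). PAX5, the factor of B cell commitment, was expressed at 12.8, 12.4, 12.3 and 12.5 TPM, although most B cell genes above were not. CEBPE, needed for late granules, was at 0.705, 1.12, 0.509 and 0.657 TPM and passed 1 TPM only in replicate 2. GATA1 and GFI1B, erythroid and megakaryocytic factors, had 4 and 2 fragments, ERG had 5, EBF1 of B cells had 5, and TAL1 and LEF1 were silent. Of the 24 pairs of neighbors in the order of expressed factors, 11 overlapped between libraries, so that only the coarse order is fixed by these data.

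**Figure D2:**
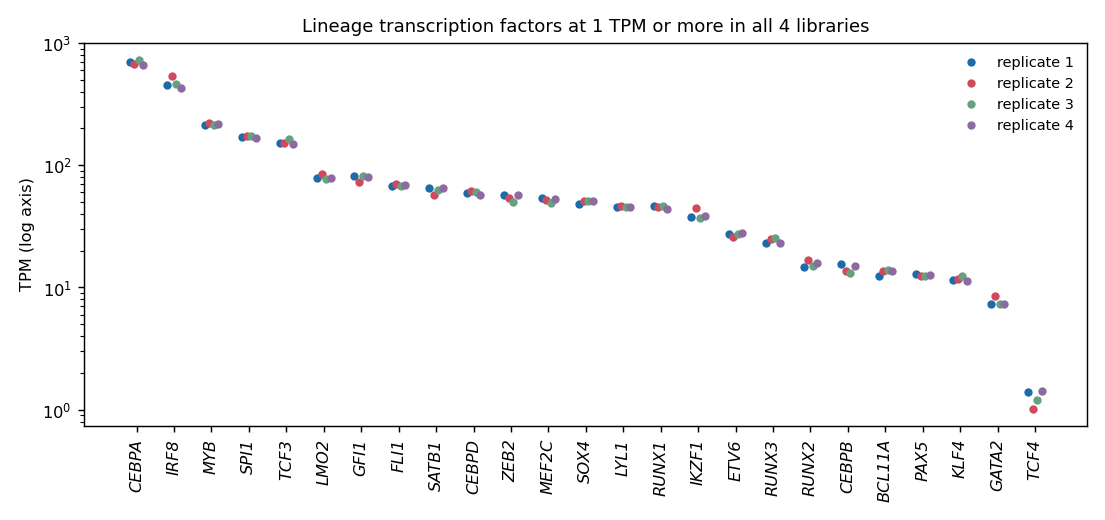
TPM (log axis) of the 25 expressed lineage transcription factors in each of the 4 libraries, ordered by mean. CEBPA and IRF8 stood above the others in every library, and TCF4 was the lowest at 1.26 TPM.

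The HOX clusters were used in a clear pattern of all, some or none. HOXA was on throughout: all 11 genes were expressed (against 52.8% of all protein-coding genes), with a summed level of 231 ± 8.77 TPM. HOXA10 (chr7:27170605-27179861, minus strand) was the highest at 64.3, 65.8, 59.4 and 62.7 TPM. HOXA11 was at 40.2, 45.1, 40.7 and 40.4 TPM and HOXA13 at 40.1, 39.2, 40.6 and 42.3 TPM. Libraries of HOXA11 and HOXA13 overlapped, while HOXA10 was above both in every library. HOXA9 (chr7:27162438-27165537, minus strand), the best known target of KMT2A fusions, was at 25.96, 29.7, 30.7 and 26.1 TPM. Other annotated genes share 72.4% of the exon bases of HOXA9, where fragments were not counted for it. With the unshared length alone its mean came to 97.6 TPM, and that of HOXA10, with 29.9% shared, to 86.2 TPM, so the order of these genes depends on the length used. With the deposited lengths, HOXA9, HOXA10, HOXA11 and HOXA13 held 75.02 ± 1.03% of the summed HOXA level. HOXA5 followed at 19.2 ± 0.695 TPM and HOXA6 at 15.5, 20.5, 14.1 and 12.7 TPM, with replicate 2 the highest. HOXA7 (5.46 ± 0.534 TPM, or 20.7 TPM with its unshared length), HOXA3 (5.44 ± 0.203 TPM), HOXA4 (5.08 ± 0.841 TPM) and HOXA2 (2.45 ± 0.480 TPM) were lower.

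HOXC was partly on. Of 9 genes, 6 were expressed (66.7%) and 3 silent (33.3%), shares not far from the 52.8% and 21.6% of all protein-coding genes. The expressed ones are given here in falling order of level. HOXC4 (chr12:54016888-54056030, plus strand) was at 25.7, 28.2, 27.4 and 27.5 TPM, HOXC10 at 13.1, 14.9, 13.7 and 12.9 TPM and HOXC6 at 9.83, 12.05, 10.02 and 11.5 TPM. HOXC9, HOXC8 and HOXC5 had means of 5.55, 5.16 and 1.97 TPM. HOXC11, HOXC12 and HOXC13, at the end of the cluster, were silent. In HOXB, 0 of 10 genes were expressed (against 52.8%) and 3 were silent (30%, against 21.6%). The highest, HOXB9, was at 0.249 TPM from 25 fragments. In HOXD, all 9 genes from HOXD13 (chr2:176087487-176095944, plus strand) to HOXD1 (chr2:176188668-176190907, plus strand) had no fragment among the 96498493 counted. The limit of 3 counts over the 4 libraries corresponds to between 0.0117 and 0.0442 TPM for these genes. Over all protein-coding genes, 21.6% had no fragment. Of 7 genes for the cofactors that bind DNA with HOX proteins, 3 were expressed (42.9%, against 52.8%). PBX3 was at 58.03, 63.8, 55.4 and 58.9 TPM. MEIS1 was at 27.2, 28.3, 27.96 and 27.3 TPM and MEIS2 at 16.8, 17.4, 17.5 and 17.1 TPM.

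**Figure D3:**
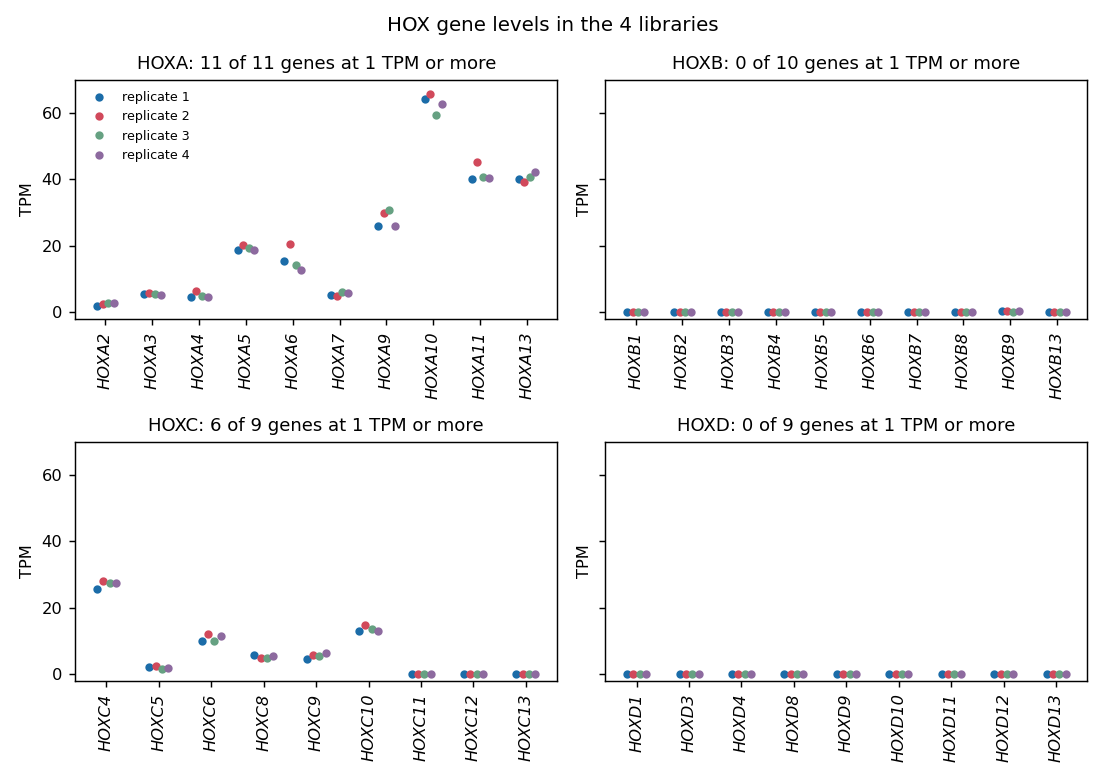
TPM (linear axis) of the listed genes of the 4 HOX clusters in each of the 4 libraries, ordered by gene number, with 1 HOXA gene not drawn. All 11 HOXA genes and 6 of 9 HOXC genes lay at 1 TPM or more, whereas no HOXB or HOXD gene did. The share over all protein-coding genes was 52.8%.

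Receptor tyrosine kinases and cytokine receptors are the proteins through which blood cells receive growth and survival signals. Of 58 receptor tyrosine kinase genes, 15 were expressed (25.9%, against 52.8% of all protein-coding genes). Another 11 were silent (19.0%, against 21.6%). FLT3 (chr13:28003274-28100587, minus strand) was at 177, 187, 175 and 189 TPM. RET (chr10:43077027-43130351, plus strand), the receptor of the GDNF family of ligands, was at 166, 179, 173 and 167 TPM. The 2 genes overlapped between libraries, and together they held 63.1 ± 1.02% of the summed TPM of the family. FGFR1, at 49.7, 46.98, 53.04 and 48.5 TPM, and EPHB4, at 41.9, 48.6, 46.2 and 42.7 TPM, came next and also overlapped. INSR was at 24.9 ± 0.884 TPM, RYK at 20.7 ± 0.926 TPM, FGFR3 at 19.3 ± 1.94 TPM and EPHB3 at 13.1 ± 1.88 TPM. IGF1R (8.06 ± 0.551 TPM), LMTK2 (7.24 ± 0.242 TPM), FLT4 (3.57 ± 0.348 TPM), AXL (3.12 ± 0.291 TPM), TYRO3 (2.33 ± 0.0855 TPM) and ROS1 (1.22 ± 0.128 TPM) completed the expressed members with CSF1R. EGFR, MET, KDR (VEGFR2), ALK and ROR1 were silent.

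The partners of RET were looked up in a list written after its level had been seen. Of its 4 co-receptor genes, GFRA1 and GFRA4 were silent, GFRA2 had 1 fragment and GFRA3 had 6. GFRAL, the co-receptor for GDF15, was silent as well. Among ligands, ARTN (artemin) was expressed at 12.5, 15.95, 15.6 and 12.2 TPM, while GDNF was silent and NRTN and PSPN had means of 0.687 and 0.837 TPM. For AXL and TYRO3 the ligand gene GAS6 (chr13:113820549-113864076, minus strand) was high, at 199, 229, 218 and 188 TPM. For FLT3 the ligand gene FLT3LG was at 3.28, 2.92, 3.22 and 2.61 TPM, and for KIT the ligand gene KITLG was at 5.05, 4.203, 4.73 and 6.22 TPM. Other expressed secreted factors were TGFB1 (148 ± 7.23 TPM), VEGFA (97.1 ± 4.39 TPM), IL18 (23.9 ± 1.08 TPM), TNFSF13B (23.7 ± 2.59 TPM), VEGFB (15.7 ± 3.06 TPM), PDGFA (10.5 ± 0.333 TPM) and OSM (3.78 ± 0.598 TPM). The growth factor genes CSF2, CSF3 and IL3 were silent.

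Of 38 cytokine receptor genes, 19 were expressed and 8 silent (21.1%), shares near those of all protein-coding genes (52.8% and 21.6%). IL6R, the interleukin-6 receptor, was at 76.5, 71.9, 70.8 and 72.4 TPM. IL10RB, a shared chain of interleukin-10 family receptors, was at 49.7, 46.2, 48.96 and 47.9 TPM. CSF3R, the G-CSF receptor, was at 37.3, 50.9, 43.4 and 37.8 TPM, with replicate 2 the highest. IL6ST (gp130), the signaling partner of IL6R, was at 3.52, 3.69, 3.45 and 3.65 TPM, well below it in every library. The 4 chains of the receptors for interferon alpha, beta and gamma were all expressed: IFNGR1 (34.3 ± 1.51 TPM), IFNAR2 (25.6 ± 0.259 TPM), IFNAR1 (15.9 ± 0.486 TPM) and IFNGR2 (5.81 ± 0.439 TPM, on several contigs). CSF2RB, the shared chain of the receptors for GM-CSF, IL-3 and IL-5, was at 4.73, 5.85, 5.68 and 5.29 TPM, while its partner chains on X and Y could not be measured. IL27RA (28.9 ± 2.17 TPM), IL4R (18.1 ± 0.369 TPM), IL13RA1 (10.8 ± 0.255 TPM) and IL15RA (5.93 ± 0.221 TPM) were also expressed, as was EPOR. IL11RA, IL12RB1, IL2RG, IL21R and IL10RA lay between 1.32 and 3.44 TPM. IL10RA came to 2.899 TPM with the exon length that no other gene shares. IL2RA, IL5RA, LIFR and GHR were silent. Of the 18 neighboring pairs in the order of level, 8 overlapped between libraries.

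**Figure D4:**
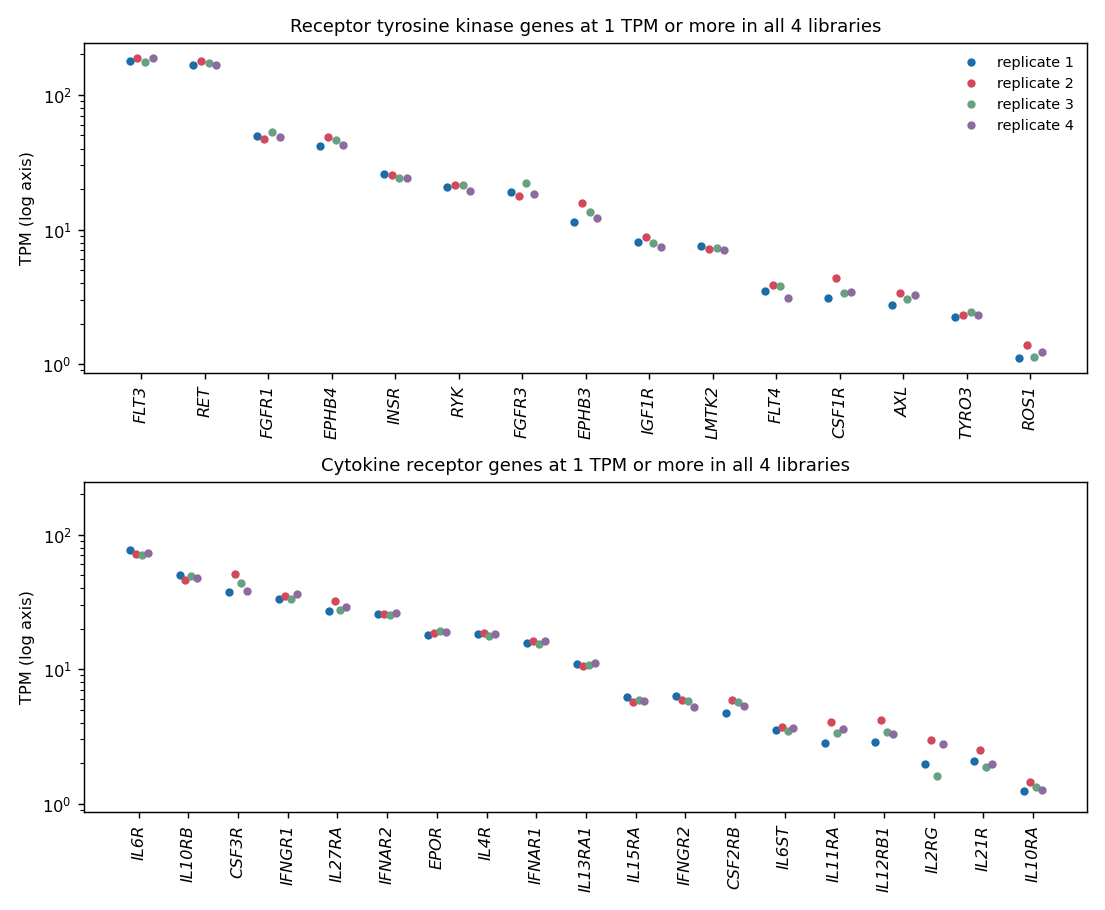
TPM (log axis) of the 15 expressed receptor tyrosine kinase genes and the 19 expressed cytokine receptor genes in each of the 4 libraries, ordered by mean. FLT3 and RET lay between 166 and 189 TPM, above FGFR1 at 49.6 TPM and above IL6R, the highest cytokine receptor, at 72.9 TPM.

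Chemokine receptors were few. Of 22 genes, 5 were expressed (22.7%, against 52.8% of all protein-coding genes). CXCR4, the receptor that holds cells in the marrow, led at 46.1, 50.1, 46.8 and 45.6 TPM. CCR1 was at 10.1, 11.7, 10.03 and 9.21 TPM and CXCR3 at 1.77, 1.65, 1.99 and 1.71 TPM, and CX3CR1 and CCR2 are given above. Among 26 innate receptor genes 7 were expressed (26.9%), with FCGR1A first and FCGR2A (CD32) at 9.75, 13.2, 12.9 and 10.00 TPM. FCGR2B and FCGR2C, at 5.97 and 5.06 TPM, are near-identical paralogs. Fragments that map to several places were left out, so their levels may be understated. Of the Toll-like receptors, TLR9, the endosomal sensor of bacterial DNA, was at 3.76, 5.74, 3.197 and 3.91 TPM, TLR2 at 2.804, 3.904, 2.704 and 2.71 TPM and TLR6 at 2.67, 3.12, 2.53 and 2.51 TPM. TLR4, the lipopolysaccharide sensor, was at 0.151 TPM, so that it and its co-receptor CD14 were both under 1 TPM.

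Of 20 surface antigens used as targets in AML, 11 were expressed (55%, near the 52.8% of all protein-coding genes). SIRPA, the receptor for CD47, was the highest at 92.03, 86.6, 87.9 and 93.6 TPM, and CD47 itself was at 11.3, 11.6, 11.4 and 11.5 TPM. CD70, the ligand of CD27, was at 52.1, 73.7, 57.96 and 51.8 TPM, with replicate 2 above the others. TNFRSF1B (38.4 ± 1.32 TPM), CD93 (37.6 ± 2.16 TPM), CD44 (34.5 ± 1.23 TPM), ADGRE2 (32.5 ± 0.707 TPM), IL1RAP (9.998 ± 0.466 TPM) and CD36 (1.56 ± 0.375 TPM) joined CD33 and CD38. CLEC12A (CLL-1) was at 0.215 TPM, HAVCR2 (TIM-3) at 0.231 TPM, and CD200 was silent. CIITA, the transcriptional activator of the class II antigen-presentation genes, was at 0.541, 0.900, 0.634 and 0.454 TPM, under 1 in every library, with replicate 2 the highest, and the class II chain HLA-DRB5, on 1 contig, had 4 fragments. CD74, the invariant chain of class II molecules, was at 56.5, 71.7, 59.5 and 57.6 TPM. Of 20 antigen-presentation genes, only 3 lie on 1 contig, and the levels of HLA-B, HLA-C, HLA-E and B2M are not compared for that reason.

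Genes of the proteins targeted in the series and of the KMT2A program were present without any inhibitor. MEN1, which encodes Menin, was at 49.2, 49.5, 51.97 and 48.1 TPM. KMT2A was at 12.7, 14.6, 12.8 and 13.7 TPM and MLLT3 at 4.65, 4.44, 4.82 and 4.36 TPM. Counting by gene does not tell the fusion transcript from the normal alleles, since each fragment is assigned to the gene it lies in. PSMB10, an immunoproteasome subunit, was at 280.3, 295, 295 and 267 TPM and PSMB5, of the standard proteasome, at 100.3, 106, 108 and 94.3 TPM. PSMB8 (3.28 TPM) and PSMB9 (4 fragments) lie on several contigs. With the exon length of 1 contig, PSMB8 came to 26.2 TPM, and how many of its fragments were left out was not tested. BASP1 was at 5.35, 6.99, 5.17 and 4.89 TPM. All 18 genes of the list of KMT2A fusion targets and dependencies were expressed, against 52.8% of all protein-coding genes. This count was partly fixed in advance. Many of the listed genes are ones that the paper names as falling in MOLM-13 under PR-957, which requires expression without it. Beside those above, the 18 included MYC (337, 335, 349.6 and 347 TPM), GNAS (209.6 ± 5.52 TPM), CDK6 (61.6 ± 3.26 TPM), CDK9 (56.4 ± 2.74 TPM), SENP6 (52.2 ± 2.79 TPM), JMJD1C (46.6 ± 2.98 TPM) and VENTX (21.7 ± 2.56 TPM).

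Of 24 genes often mutated in AML, 23 were expressed (95.8%, against 52.8% of all protein-coding genes), KIT being the one that was not. NPM1, a nucleolar chaperone, was at 1948 ± 25.9 TPM, SRSF2 at 283 ± 12.3 TPM and IDH2 at 208 ± 9.001 TPM. WT1, a zinc finger factor often high in AML, was at 52.6, 50.4, 51.3 and 50.6 TPM. DNMT3A and TET2 were at 4.97 ± 0.108 and 4.74 ± 0.154 TPM. Of the 16 genes of the BCL2 family, 14 were expressed (87.5%). Among the survival factors MCL1 led at 172, 167, 165 and 175 TPM, with BCL2, the target of venetoclax, at 31.3, 31.7, 30.6 and 31.6 TPM. BCL2L2 was at 13.9 ± 0.459 TPM, BCL2L1 (BCL-XL) at 8.83 ± 0.726 TPM and BCL2A1 at 1.802 ± 0.299 TPM. The levels of these 5 did not overlap between libraries. Of the pore formers, BAX was at 129, 133, 137 and 142 TPM and BAK1 at 48.98 ± 2.28 TPM. Among the BH3-only genes BIK was the highest at 112, 97.8, 101 and 105 TPM, ahead of BID (58.1 ± 0.859 TPM), PMAIP1 (23.8 ± 1.81 TPM), BCL2L11 (20.02 ± 0.530 TPM), BBC3 (19.3 ± 0.478 TPM), BAD (12.6 ± 1.82 TPM), BMF (7.98 ± 0.838 TPM) and HRK, which missed the threshold in replicate 4 (1.12, 1.09, 1.01 and 0.868 TPM).

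All 20 genes of the proliferation list were expressed (against 52.8% of all protein-coding genes), 13 of them at 100 TPM or more in every library. The replication helicase gene MCM3 was at 325, 312, 320.3 and 321 TPM and PCNA, the sliding clamp, at 297, 280.0, 282 and 298 TPM. PLK1 and TOP2A, of mitosis, were at 242, 218, 259 and 246 TPM and 242, 224, 236 and 251 TPM. MKI67, the Ki-67 antigen, was at 179.7, 148, 160.4 and 177 TPM, with replicate 2 the lowest. Of 11 genes of arrest and quiescence, 8 were expressed (72.7%), led by CDKN2C (p18) at 232, 223, 247 and 227 TPM and CDKN1A (p21) at 115, 119, 122 and 126 TPM. CDKN2A (p16 and ARF, chr9:21967752-21995324, minus strand) and CDKN2B (p15, chr9:22002903-22009313, minus strand) were silent. Their neighbor MTAP (chr9:21802636-21867081, plus strand) was at 15.7, 15.6, 14.4 and 15.7 TPM. On the same side, KLHL9 was at 8.76 ± 0.561 TPM, HACD4 at 3.25 ± 0.365 TPM and FOCAD at 9.64 ± 0.477 TPM. On the other side DMRTA1 (chr9:22446824-22455740, plus strand) and ELAVL2 were silent. The antisense gene CDKN2B-AS1, which spans the region, had 32 fragments. Loss of DNA and lack of transcription cannot be told apart by RNA counts.

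Genes of acute responses were uneven. Of 20 immediate early genes 15 were expressed (75%, against 52.8% of all protein-coding genes). JUND (490.2, 522, 535 and 495 TPM) and MYC were high, and IER2 was at 184 ± 21.3 TPM, JUNB at 179 ± 10.9 TPM and ZFP36 at 128 ± 12.4 TPM. EGR1 was at 19.2, 6.67, 15.1 and 9.78 TPM and FOS at 9.77, 5.72, 12.5 and 8.64 TPM, both with replicate 2 the lowest, while JUN was at 2.095 ± 0.220 TPM. Of 15 hypoxia response genes, in a list written after values had been seen, 12 were expressed (80%). DDIT4, an inhibitor of mTOR signaling that stress induces, was the highest at 766, 961, 826 and 737 TPM. BNIP3, of mitochondrial clearance, was at 56.4, 79.6, 67.9 and 54.9 TPM and CA9, a strict hypoxia marker, had 4 fragments. In both DDIT4 and BNIP3, replicate 2 was the highest library and replicate 4 the lowest.

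Long noncoding RNAs were a small part of the pool, at 1.05 ± 0.0280% of TPM. Of 12469 such genes, 734 were expressed (5.89%) and 7923 silent (63.5%). The most abundant were hosts of small nucleolar RNAs: SNHG29 was at 785, 875, 818 and 829.8 TPM, GAS5 at 754, 858, 779 and 805 TPM and SNHG6 at 680.0, 734, 723 and 718 TPM. SNHG6 shares exon bases with other annotated genes and came to 1700.2 TPM with its unshared length. They were followed by SNHG5 (449 ± 8.89 TPM), ZFAS1 (435 ± 18.05 TPM), SNHG8 (366 ± 6.43 TPM), C10orf91 (203 ± 11.6 TPM), SNHG1 (187 ± 10.6 TPM), SNHG19 (167 ± 12.3 TPM) and LOC105378153 (127 ± 3.89 TPM). NORAD, a cytoplasmic RNA that binds Pumilio proteins, was at 76.8 ± 4.64 TPM. Without strand, reads from antisense genes and the genes they overlap cannot be told apart. Of 541 small nucleolar RNA genes, 205 reached 1 TPM in all libraries, and of 1913 microRNA genes 131 did. Many of these genes are shorter than a sequenced fragment, and a fragment counted for one may belong to its longer host transcript. Both kinds together held 1.04 ± 0.0474% of TPM but 0.0384 ± 0.00187% of counts.

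Spread among replicates beyond counting was, for the median gene, about as large as that from counting. For the 9861 genes with a mean of 5 CPM or more, the median CV over the 4 libraries was 4.67%, and 3.22% would come from counting alone. After the counting variance had been taken off, the median CV was 3.15%. In 2452 genes (24.9%) nothing was left beyond counting, 542 (5.50%) kept 10% or more, and 61 (0.619%) kept 20% or more. Replicate 2 carried much of this: without it, 22 genes kept 20% or more and the median CV beyond counting was 2.09%. Without replicate 1, 3 or 4, the number that kept 20% or more was 86, 84 and 92. The common biological CV from edgeR, fitted with a single mean, was 4.24%. Depth sets this limit: FLT3 had 30296 fragments in all and a counting CV of 1.16%, and S100A8 had 136 and 17.3%.

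The most variable gene was EGR1, an immediate early factor, with 24.9, 8.65, 19.5 and 12.6 CPM and 43.7% beyond counting. CCR2, the chemokine receptor of classical monocytes, had 6.97, 14.1, 8.02 and 7.50 CPM and kept 35.8%. ID1, an inhibitor of basic helix-loop-helix factors, had 11.5, 5.29, 10.4 and 8.19 CPM and kept 30.3%. In all 3, replicate 2 was at one end of the range. The others of the 10 most variable were BNC2 (36.3%), TIFAB (33.6%), MS4A6A (32.7%) and ADM (31.6%), with MIR142 (33.6%), whose annotated length is shorter than a read, and FCGR2C (37.1%) and HSPA7 (32.8%), which have near-identical paralogs.

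Each library was then set against the mean CPM of the other 3. For replicates 1, 3 and 4 that mean includes replicate 2, so their ratios are not independent of its level. In replicate 2, 29 genes were more than 1.5-fold higher and 7 more than 1.5-fold lower. In replicates 1, 3 and 4, the higher genes numbered 1, 3 and 0 and the lower ones 5, 3 and 7. The 10 genes farthest above in replicate 2 were BNC2 (1.91-fold), CCR2 (1.88-fold), TIFAB (1.80-fold), MS4A6A (1.77-fold), CYP26B1 (1.71-fold), FCGR2C (1.69-fold), EEF1A2 (1.68-fold), BEND4 and CIITA (each 1.66-fold) and ADM (1.65-fold). The 7 genes lower in it were EGR1 (0.455 of the others), MIR142 (0.525), ID1 (0.527), FOS (0.557), PPIC (0.632), CHAC1 (0.638) and DAB2 (0.660). By list, the monocyte and macrophage genes of replicate 2 had a median log2 ratio of 0.17 to the other libraries, with 9 of 10 higher, beside 4507 of all 9861 genes. The 7 innate receptor genes, some of them near-identical paralogs, had a median of 0.51 with 6 higher. Lists of other kinds were shifted in replicate 2 too. Chemokine receptor genes had a median of 0.19 with 4 of 4 higher, and antigen-presentation genes 0.11 with 6 of 6. HOXA genes had 0.10 with 6 of 7 higher. By contrast, lineage transcription factors had 0.02 with 15 of 25 higher, and the BCL2 family -0.04 with 3 of 13. In replicate 1, 10 of 10 monocyte and macrophage genes and 7 of 7 innate receptor genes were lower, beside 5514 of all 9861 genes. Their medians were -0.11 and -0.18. How much of this came from the high level of replicate 2 in the mean was not tested. The hypoxia response genes of replicate 2 had a median of 0.24 with 11 of 12 higher. That list was written after values had been seen, so its ratios are no separate evidence. The proliferation genes of replicate 2 had a median of -0.13 with 19 of 20 lower, beside 5354 of all 9861 genes. In replicate 4 the hypoxia response genes had a median of -0.23 with 11 of 12 lower, beside 4414 of all 9861 genes. In replicate 1 the mitochondrially encoded genes had a median of 0.19 with 13 of 13 higher, beside 4347 of all 9861 genes. Over all 9861 genes the medians lay between -0.01 and 0.01. What set these libraries apart was not tested.

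**Figure D5:**
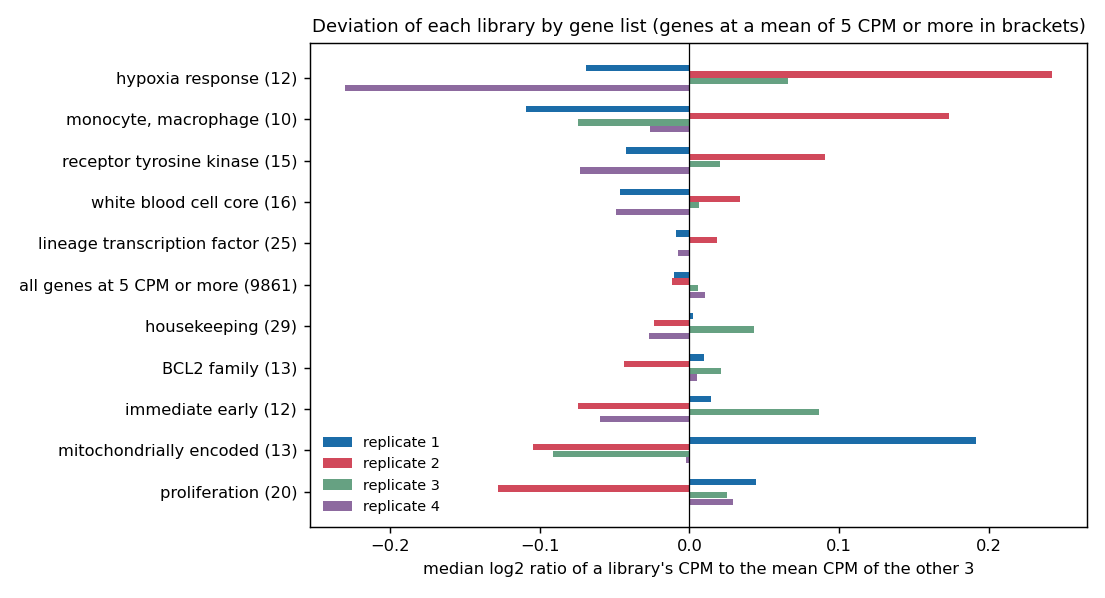
Median log2 ratio of the CPM in each library to the mean CPM of the other 3, by gene list, with the number of genes at a mean of 5 CPM or more in brackets. Replicate 2 was higher in hypoxia response (0.24) and monocyte and macrophage genes (0.17) and lower in proliferation genes (-0.13). It was also higher in lists not drawn, among them chemokine receptors (0.19). Replicate 4 was lower in hypoxia response genes (-0.23), and the medians over all genes were near 0. The hypoxia response list was written after values had been seen, and the mean set against replicate 4 includes replicate 2.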

How the data were processed

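RNA was sequenced from MOLM-13 cells as polyadenylated, paired-end libraries (TruSeq). The authors trimmed reads with Trimmomatic 0.39, aligned them to hg38 with STAR 2.7.10a and deposited counts of read pairs per RefSeq gene from featureCounts 2.0.1, made without strand and without fragments that map to several places or genes. Alignments had also been filtered by a rule that the sources used here do not state. Comparison tables were deposited too. They hold log2 fold changes and p-values and were not used, nor were the 7 columns of inhibitor-treated libraries.

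From the counts of the 4 DMSO libraries (21580208 to 30992759 fragments each), CPM over plain totals and TPM over the deposited exon lengths were computed. Those lengths add up all contigs, so that TPM is understated for the 2156 genes on several contigs. The extra CV of a gene is its CV after the counting variance was taken off, for a mean of 5 CPM or more, and was tested on simulated data. Since only 1 group was described, no test between groups was made. Gene types, start sites and promoters came from RefSeq (GRCh38.p14), which 35671 of 38557 gene symbols matched. For silent genes, 3 counts over the 4 libraries served as the limit of detection. Such limits cover counting error only.

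The libraries and the 42 gene lists were chosen with earlier results of these data known, and 6 of the lists were written after levels had been seen. Named were the 25 highest genes, the 5 highest and the expressed members of each list, every member of short lists, the 10 most variable genes and the highest long noncoding RNAs. Some genes that this rule would name are not reported here. Other members at low or zero level, PPP1R27 and the genes that set replicate 2 apart were chosen after their values had been seen. Alternatives left out each replicate, used other lengths, thresholds, TMM factors or equal depth, or left out mitochondrial genes. Python 3.11.15 (numpy 2.4.6, pandas 2.3.3, scipy 1.17.1, matplotlib 3.10.9) and R 4.3.3 with edgeR 4.0.16 were used.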

Additional observations from a re-analysis of the deposited data

Results flagged for a closer look

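In 17 of 244 values tested, the highest or lowest library lay apart from the other 3 by more than Dixon's limit for a group of 4, which chance passes in about 1 of 20 groups. Replicate 2 was the library apart in 10 of them, as the highest in 9. Among marker genes, its 8.55 TPM of CCR2 stood against 4.21 to 4.87 TPM in the other libraries and its 7.62 TPM of S100A8 against 3.56 to 4.04 TPM. Its 102 TPM of MPO stood against 75.7 to 80.1 TPM and its 3.904 TPM of TLR2 against 2.704 to 2.804 TPM. For transcription factors, replicate 2 had 8.55 TPM of GATA2 against 7.26 to 7.32 TPM, 85.4 TPM of LMO2 against 77.7 to 78.2 TPM and 45.1 TPM of HOXA11 against 40.2 to 40.7 TPM. It also had 6.48 TPM of ACTA2 against 5.93 to 5.99 TPM and 132 TPM of the noncoding LOC105378153 against 124 to 125 TPM, and it was the lowest for NCAM1, with 43.7 TPM against 45.1 to 45.4 TPM.

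Replicate 3 was the highest for RAC2, with 647 TPM against 576 to 581 TPM, and for GNAS, with 218 TPM against 206 to 208 TPM. It was the lowest for MTAP, with 14.4 TPM against 15.6 to 15.7 TPM, and for NRIP1, with 11.9 TPM against 13.2 to 13.3 TPM. Replicate 1 was the highest for BID, with 59.3 TPM against 57.5 to 57.7 TPM, and the lowest for PGLYRP1, with 3.08 TPM against 3.98 to 4.13 TPM. Its 30992759 counted fragments lay apart from the 21580208 to 22321728 of the other libraries. Replicate 4 was apart in 0 values.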

How the results depend on the processing

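The number of expressed genes lay between 11770 and 12858 under every alternative run for it (each replicate left out, 1 CPM or 0.5 TPM as the threshold, the length on 1 contig, equal depth), against 11792 as reported, and that of silent genes between 15709 and 16604. Counts of expressed members stayed within 1.5 times for all lists examined except the B cell list, where 1 member became 4 at 0.5 TPM and 1 to 2 when a replicate was left out (2 without replicate 4, CD79A being the gene it held back). As a share of counts instead of TPM, the top 10 genes held 8.35%, the top 100 held 25.7%, mitochondrial mRNA 5.29% and ribosomal protein genes 10.5%. With mitochondrial genes left out, the top 10 held 11.6%, the top 100 held 38.3% and ribosomal protein genes 26.0%.

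Spread depended on replicate 2 and on the floor on expression. The median CV beyond counting was 2.09 to 3.21% when a replicate was left out, the lowest without replicate 2, and genes at 20% or more numbered 22 to 92, with 22 without replicate 2 and 92 without replicate 4. Above a mean of 20 CPM, 1522 genes had no spread beyond counting, 157 kept 10% or more and 13 kept 20% or more, out of 7236 genes. TMM factors and equal depth left these counts within 1.5 times.

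Under TMM factors, the gene levels in the text were 0.995 to 1.003 times those reported. Leaving out a single library cannot move the mean by 1 SD, so the SD is no measure of that change. Without any single replicate, the levels were 0.546 to 1.33 times those reported. Only the lowest ones moved by more than 1.5 times (CA9 to 0.0292 TPM without replicate 3, CD34 to 0.00459 TPM without replicate 4). Over 1.5 times higher were 9 genes with the length on 1 contig and 12 with the length that no other gene shares. Those whose new level is not given above are AZU1, CFD, IFNGR2, MS4A3 and PSMB9, higher by 1.54 to 7.97 times with the length on 1 contig. With mitochondrial genes left out, the levels of other genes were 1.15 to 1.16 times higher. No paired analysis was possible because only 1 group was described. Genes under about 1 TPM rest on few fragments, and their order is limited by depth.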
